A study of Mus musculus with 12 samples.

Results

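The data describe 10 inflammatory CC chemokine genes of the mouse, Ccl2, Ccl3, Ccl4, Ccl5, Ccl6, Ccl7, Ccl8, Ccl9, Ccl11 and Ccl12. They were taken by gene symbol from a table of 45777 genes, in which each symbol matched 1 gene. RNA sequencing of whole hindlimb tissue gave 12 libraries, 4 in each of 3 groups. One group had lymphedema alone (LE), one had received a lymph node transfer (VLNT), and one had received the transfer together with ABTAA (VtA), an angiopoietin-2 antibody known to activate the endothelial receptor Tie2. The labels give no strain, age, sex, time point or dose, do not say how lymphedema was made, and include no group without lymphedema. Whether the 4 replicates of a group are different animals is not stated, and the spread that the p-values rest on could therefore be technical. Libraries are named by group and replicate, LE1 to VtA4.

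CC chemokines are small secreted proteins that draw leukocytes out of the blood by binding G protein-coupled receptors on the cells they attract. Ccl2, Ccl7 and Ccl12 act mainly on Ccr2 of monocytes, and mouse Ccl8 acts on Ccr8, a receptor of T helper cells. Ccl3, Ccl4 and Ccl5 attract macrophages and T cells, and Ccl3 and Ccl5 signal through Ccr1, the receptor of Ccl6 and Ccl9. Ccl11, or eotaxin, is made largely by fibroblasts and other stromal cells and attracts eosinophils through Ccr3. In lymphedema, tissue that drains poorly fills with fluid, leukocytes, fat and fibrous matrix, and macrophages and T helper cells are known to take part.

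All 10 genes lie on chromosome 11 (GRCm38.p6, the assembly behind mm10), in 2 groups of 5. Ccl2, Ccl7, Ccl11, Ccl12 and Ccl8 follow each other on the plus strand from 82035577 to 82116799, a stretch of 81.2 kb. Ccl5, Ccl9, Ccl6, Ccl3 and Ccl4 lie from 83525778 to 83664683, over 139 kb, all but Ccl4 on the minus strand. Ccl3 (83647843 to 83649378) overlaps the annotated span of Ccl4 (83648624 to 83664683) on the other strand. Whether the counting used strand is not given in the sources used here, so reads could have been shared between Ccl3 and Ccl4, and their levels are uncertain to that extent. Ccl5 and Ccl6 overlap the non-coding genes Gm32650 and E230016K23Rik, with the same limit.

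RefSeq promoter windows on GRCm38.p6 were at hand for 5 of the 10 genes. They are shown to set neighbouring genes of each locus beside each other. Each line gives the 150 bases before the annotated start, 5′ to 3′ on the strand of the gene. Capitals mark matches to 5 motifs searched on both strands: the TATA box (TATAAA), AP-1 (TGANTCA), the STAT element TTCNNNGAA, the core of ETS factor sites (ACTTCC), and the kappaB site, searched by its consensus. Where matches overlap, the capitals run together.
Ccl8, chr11:82115035-82115184, plus strand: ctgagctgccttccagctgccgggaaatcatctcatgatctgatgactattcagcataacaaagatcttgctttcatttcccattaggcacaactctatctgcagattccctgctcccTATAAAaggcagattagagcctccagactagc
Ccl12, chr11:82101695-82101844, plus strand: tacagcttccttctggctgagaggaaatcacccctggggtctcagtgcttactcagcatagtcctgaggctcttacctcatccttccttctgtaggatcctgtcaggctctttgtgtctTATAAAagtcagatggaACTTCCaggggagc
Ccl9, chr11:83578637-83578786, minus strand: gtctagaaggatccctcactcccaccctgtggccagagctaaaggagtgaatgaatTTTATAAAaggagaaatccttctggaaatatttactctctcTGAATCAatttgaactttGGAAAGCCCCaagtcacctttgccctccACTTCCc
Ccl6, chr11:83593088-83593237, minus strand: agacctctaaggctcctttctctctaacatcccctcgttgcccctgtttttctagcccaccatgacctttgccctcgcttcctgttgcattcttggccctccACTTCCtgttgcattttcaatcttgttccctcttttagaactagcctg
Ccl3, chr11:83649379-83649528, minus strand: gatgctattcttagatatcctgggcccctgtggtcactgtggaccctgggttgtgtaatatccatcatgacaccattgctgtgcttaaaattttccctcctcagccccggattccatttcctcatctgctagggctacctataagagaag
The neighbours Ccl8 and Ccl12 both held a TATA box, at bases -32 to -27 and -31 to -26 from the start, and their 250 upstream bases aligned at 54.9% identity, the highest of the 10 pairs among these 5 windows (45.0% to 49.5% in the other 9). Ccl9 and Ccl6 shared a run of 13 bases, gccctccacttcc, that contains the ETS core. Within 250 upstream bases, a TATA box was found in 3 of the 5 genes and in 12.4% of all 32851 promoter windows, and the ETS core in 4 of 5 and in 19.7%. AP-1 and kappaB matches were found in Ccl9 alone (6.75% and 7.25% of all windows), and the STAT element in none of the 5 (7.02% of all windows). These matches describe the sequence and show no binding.

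The libraries held 56042030 to 72540147 counts and differed widely in the tissue they held. The summed level of 9 keratinocyte markers was 9.74 TPM in LE4 and 17.1 TPM in VtA1, against 17151 to 24287 TPM in LE1 to LE3, 8633 to 19947 TPM in VLNT and 648 to 5487 TPM in the other VtA libraries. TPM is a transcript level scaled by gene length and to the same total in each library. The 9 skeletal muscle markers summed to 153319 TPM in LE4, the highest after VtA2, and to 11658 TPM in LE2. LE4 and VtA1 were thus nearly free of epidermis, and values with and without them are given where a call depends on them.

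Ccl8 was the most abundant of the 10 transcripts in each group mean. The summed level of the 10 genes had its lowest group mean in VtA and its lowest single value in LE4, while VtA3 lay above VLNT2 and VLNT4. The sum was 1124, 536, 917 and 33.8 TPM in LE1 to LE4, 736, 229, 687 and 168 TPM in VLNT1 to VLNT4, and 42.9, 79.1, 293 and 60.8 TPM in VtA1 to VtA4. The group means (± SD, n = 4) were 653 ± 479 TPM for LE, 455 ± 298 TPM for VLNT and 119 ± 117 TPM for VtA. In bulk tissue, fewer cells that make a chemokine and less of its RNA per cell cannot be told apart.

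The makeup of the sum differed as well. Ccl8 made up 58.1% to 61.4% of it in LE1 to LE3, 32.7% to 62.5% in VLNT and 2.21% to 37.7% in VtA. Ccl11 made up 1.21% to 7.49% in LE1 to LE3 but 69.6% in LE4, 4.92% to 18.9% in VLNT and 22.6% to 70.4% in VtA. Ccl3 and Ccl4 together reached 20.2% in LE1 and 34.2% in VLNT3, and stood at no more than 0.325% in any VtA library. Ccl6 and Ccl9 together took 6.73% to 20.1% in LE, 12.1% to 28.2% in VLNT and 23.0% to 33.6% in VtA.

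**Figure D1:**
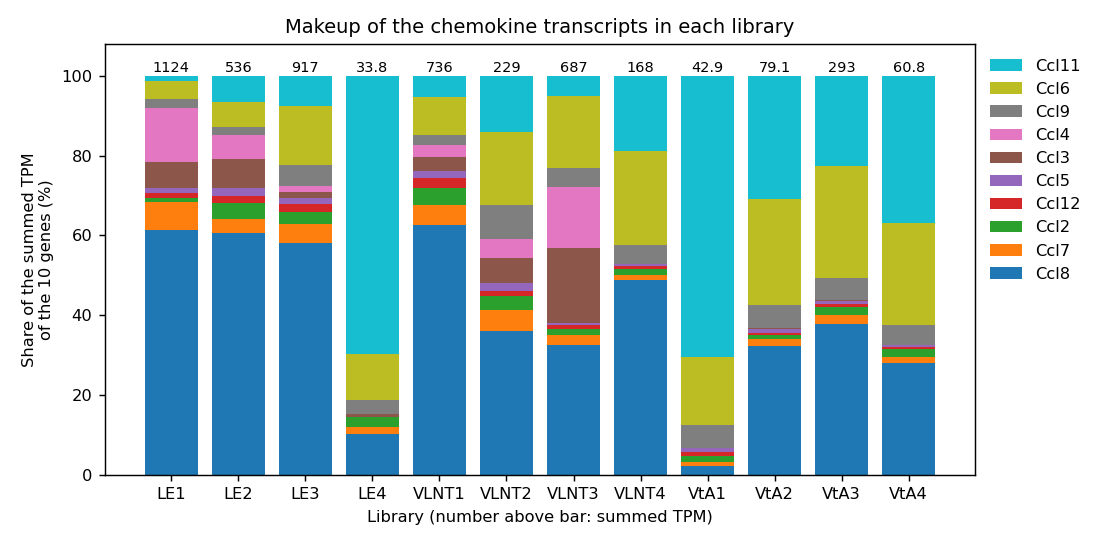
Share of each of the 10 genes in their summed TPM (y axis, percent) for each of the 12 libraries (x axis), with the summed TPM printed above each bar. Ccl8 fills most of the bar in LE1 to LE3 (58.1% to 61.4%), while Ccl11 is the largest part in LE4 (69.6%), VtA1 (70.4%) and VtA4 (36.8%).

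In order of mean TPM, Ccl8 (388 ± 297, SD, n = 4) came first in LE, followed by Ccl6 (56.8 ± 56.9), Ccl4 (49.8 ± 70.6), Ccl7, Ccl11, Ccl3, Ccl9, Ccl2, Ccl12 and Ccl5 (9.75 ± 6.64). All 9 pairs of neighbours in that order overlapped within 1 SD. The VLNT order was Ccl8 (212 ± 178), Ccl6 (69.1 ± 39.8), Ccl3, Ccl4, Ccl11, Ccl9, Ccl7, Ccl2, Ccl12 and Ccl5 (5.29 ± 5.08), and only Ccl11 and Ccl9 were apart by more than their SDs. In VtA the order was Ccl8 (38.5 ± 49.0), Ccl11 (35.8 ± 20.5), Ccl6 (31.5 ± 34.0), Ccl9, Ccl7, Ccl2, Ccl5, Ccl12, Ccl3 and Ccl4, and all neighbours overlapped. Ccl8 lay above Ccl6 in 4 of 4 VLNT libraries and in 3 of 4 LE libraries, and above Ccl11 in only 2 of 4 VtA libraries.

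**Figure D2:**
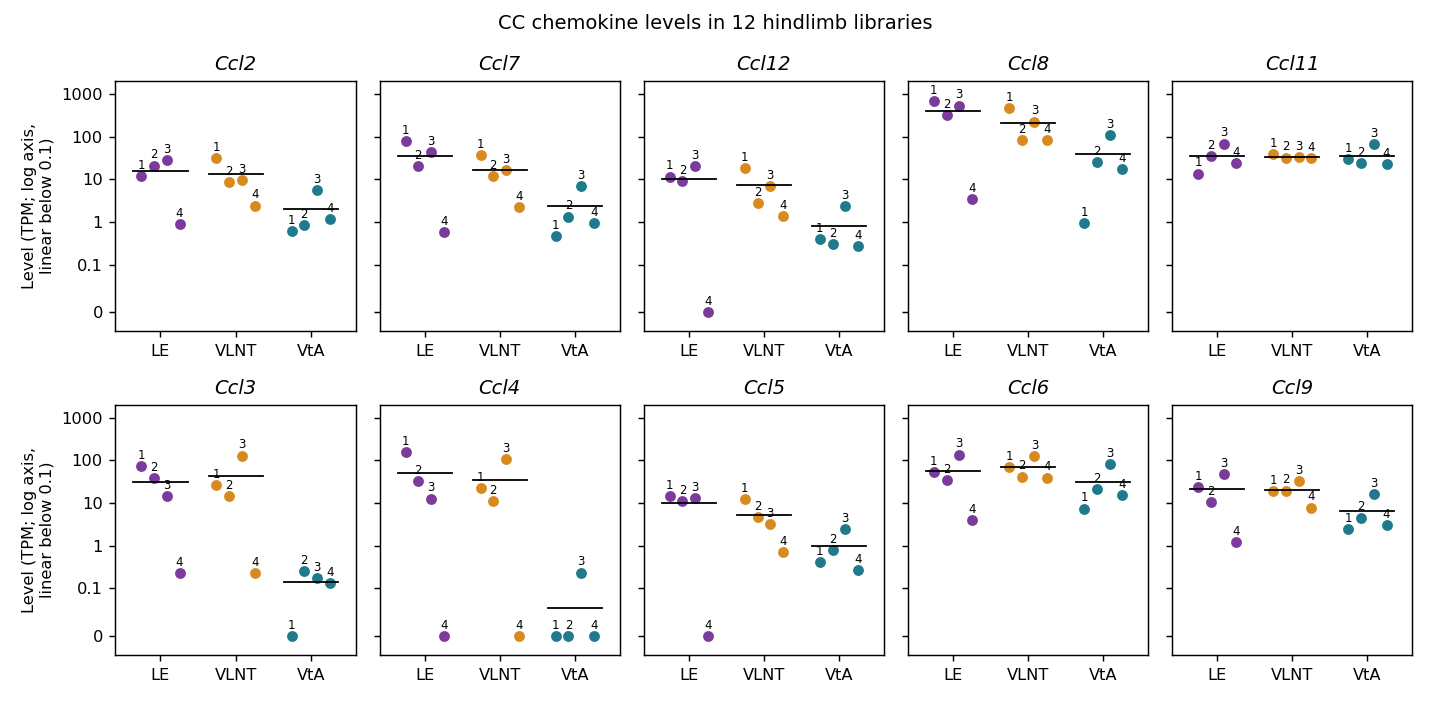
TPM of each gene (y axis, logarithmic and linear below 0.1) in the 3 groups (x axis); points are libraries marked with their replicate number and black lines are group means of n = 4. LE4 lies far below LE1 to LE3 for every gene but Ccl11, and Ccl3 is below 0.3 TPM in LE4, VLNT4 and every VtA library.

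Among the ligands of Ccr2, Ccl2, the chief attractant of monocytes, stood at 11.8, 21.1, 27.7 and 0.904 TPM in LE1 to LE4. It stood at 31.5, 8.47, 9.65 and 2.43 TPM in VLNT1 to VLNT4, and at 0.612, 0.841, 5.68 and 1.15 TPM in VtA1 to VtA4. LE4 lay within the range of VtA, and 3 of the VtA libraries lay below the whole of VLNT. VtA was lower than VLNT by -2.23 ± 0.91 on the log2 scale (SE; adjusted p = 0.653 by edgeR's quasi-likelihood test with Benjamini-Hochberg adjustment over all genes) and lower than LE by -2.45 ± 0.91 (adjusted p = 0.288). VLNT and LE differed by -0.22 ± 0.86 (adjusted p = 0.9999 by edgeR). All p-values in the text are 2-sided.

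Ccl7, another ligand of Ccr2, reached 79.0, 20.1, 42.8 and 0.589 TPM in LE1 to LE4. Its levels were 37.2, 11.8, 16.7 and 2.21 TPM in VLNT1 to VLNT4 and 0.478, 1.34, 6.93 and 0.939 TPM in VtA1 to VtA4. VtA overlapped with LE through LE4, and with VLNT through VtA3, which lay above VLNT4. VLNT1 lay within the range of LE1 to LE3. Ccl7 had a log2 fold change of -3.97 ± 1.30 (SE) in VtA against LE (edgeR, adjusted p = 0.288) and of -2.40 ± 1.21 against VLNT (adjusted p = 0.653). LE1 held the highest Ccl7 level, and without LE1 the difference between VLNT and LE moved from -1.58 to 0.069.

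Ccl12, also a ligand of mouse Ccr2, was at 11.6, 8.96 and 20.4 TPM in LE1 to LE3, and LE4 held 0 counts, which allows up to 0.0428 CPM (3 counts; CPM is a count scaled by library size only). VLNT1 to VLNT4 held 18.7, 2.72, 7.05 and 1.39 TPM, and VtA1 to VtA4 held 0.396, 0.307, 2.31 and 0.273 TPM. VtA3 was the only VtA library within the VLNT range. The log2 fold change of Ccl12 was -2.69 ± 1.29 in VtA against VLNT (SE, edgeR, adjusted p = 0.653) and -3.29 ± 1.32 against LE (adjusted p = 0.290). Both values rest on 8, 7, 54 and 6 counts in VtA1 to VtA4.

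Ccl8, which in the mouse attracts Ccr8-bearing T helper cells, ran from 690, 324 and 533 TPM in LE1 to LE3 to 3.42 TPM in LE4. Its levels in VLNT1 to VLNT4 were 460, 82.6, 225 and 81.8 TPM. Those in VtA1 to VtA4 were 0.947, 25.6, 110 and 17.1 TPM. In VtA, 3 libraries lay below all VLNT libraries, and VtA3 lay within their range. The log2 fold change of VtA was -2.09 ± 1.28 against VLNT (SE; edgeR, adjusted p = 0.653) and -3.32 ± 1.35 against LE (adjusted p = 0.290). For VLNT against LE it was -1.23 ± 1.25, and -0.024 without LE1.

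Ccl3, a macrophage inflammatory protein that acts on Ccr1, was at 73.8, 38.1 and 14.2 TPM in LE1 to LE3 and at 26.2, 14.3 and 129 TPM in VLNT1 to VLNT3. LE4 (0.231 TPM, 9 counts) and VLNT4 (0.229 TPM, 7 counts) stood with the VtA libraries, which held 0, 9, 7 and 5 counts (0 to 0.257 TPM). The fitted log2 fold change of VtA was -7.38 ± 1.93 against VLNT (SE; edgeR, unadjusted p = 0.00246, adjusted p = 0.653) and -7.57 ± 1.94 against LE (unadjusted p = 0.00217, adjusted p = 0.288). These values rest on 0 to 9 counts per VtA library and depend on the model at that depth. In CPM all 4 VtA libraries were below all 4 LE libraries, but in TPM VtA2 (0.257) was above LE4 (0.231), so this separation depended on the scaling.

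Ccl4, a macrophage inflammatory protein whose gene overlaps that of Ccl3, had a like pattern. It reached 154, 32.6 and 12.7 TPM in LE1 to LE3 and 22.8, 10.9 and 106 TPM in VLNT1 to VLNT3. LE4, VLNT4, VtA1, VtA2 and VtA4 held 0 counts, and VtA3 held 9. The log2 fold change of -8.13 ± 2.58 in VtA against VLNT (SE; edgeR, adjusted p = 0.653) rests on those 9 counts. Ccl3 and Ccl4 were above the minimum of 0.142 CPM in 6 libraries each, LE1 to LE3 and VLNT1 to VLNT3, and in no VtA library. Both passed the filter only through the groups where they were high, and neither passed it in a fit of VtA with 1 other group, so their p-values are given as a description.

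Ccl5, made by T cells and many other cells and a ligand of Ccr1 and Ccr3, was nearly even in LE1 to LE3 (14.6, 11.3 and 13.1 TPM) and at 0 counts in LE4. It was at 12.5, 4.72, 3.22 and 0.722 TPM in VLNT1 to VLNT4 and at 0.408, 0.783, 2.46 and 0.267 TPM in VtA1 to VtA4. VtA2 and VtA3 overlapped with VLNT. The log2 fold change was -1.94 ± 1.25 in VtA against VLNT (SE; edgeR, adjusted p = 0.653) and -3.06 ± 1.30 against LE (adjusted p = 0.294).

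Among the 9 genes that were lower in VtA, the Ccr1 ligands Ccl6 and Ccl9 had the smallest fitted differences from VLNT and LE by counts; on log2(TPM + 1), Ccl5 differed less from VLNT (-1.42) than Ccl6 (-1.48) and Ccl9 (-1.62). Ccl6 was at 52.4, 34.1, 137 and 3.92 TPM in LE1 to LE4, at 70.1, 41.7, 125 and 39.5 TPM in VLNT1 to VLNT4, and at 7.37, 21.1, 81.8 and 15.6 TPM in VtA1 to VtA4. Ccl9 was at 23.2, 10.7, 48.0 and 1.21 TPM in LE, 18.9, 19.6, 32.5 and 7.84 TPM in VLNT, and 2.48, 4.53, 16.5 and 2.99 TPM in VtA, in the same order of replicates. LE4 was the lowest library of the 12 for both genes, and VtA3 reached the level of VLNT. Against VLNT, the VtA log2 fold change was -0.72 ± 0.79 for Ccl6 (SE; edgeR, adjusted p = 0.693) and -1.15 ± 0.81 for Ccl9 (adjusted p = 0.653).

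Ccl11 did not follow the other genes. It was at 13.6, 34.9, 68.7 and 23.5 TPM in LE1 to LE4, 38.4, 32.1, 33.8 and 31.7 TPM in VLNT1 to VLNT4, and 30.2, 24.4, 66.2 and 22.4 TPM in VtA1 to VtA4. Its highest level was 5.07 times its lowest, against 34.9 times for Ccl6, the next narrowest range. Group means were 35.2 ± 24.0, 34.0 ± 3.06 and 35.8 ± 20.5 TPM in LE, VLNT and VtA (SD, n = 4). The log2 fold change of VtA against VLNT was 0.53 ± 0.35 (SE; edgeR, adjusted p = 0.653), but -0.063 on log2(TPM + 1), where the median of all genes was itself shifted by -0.23 relative to the fit of counts. Relative to the median of all genes, Ccl11 was at 0.60 by counts and 0.23 by TPM.

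**Figure D3:**
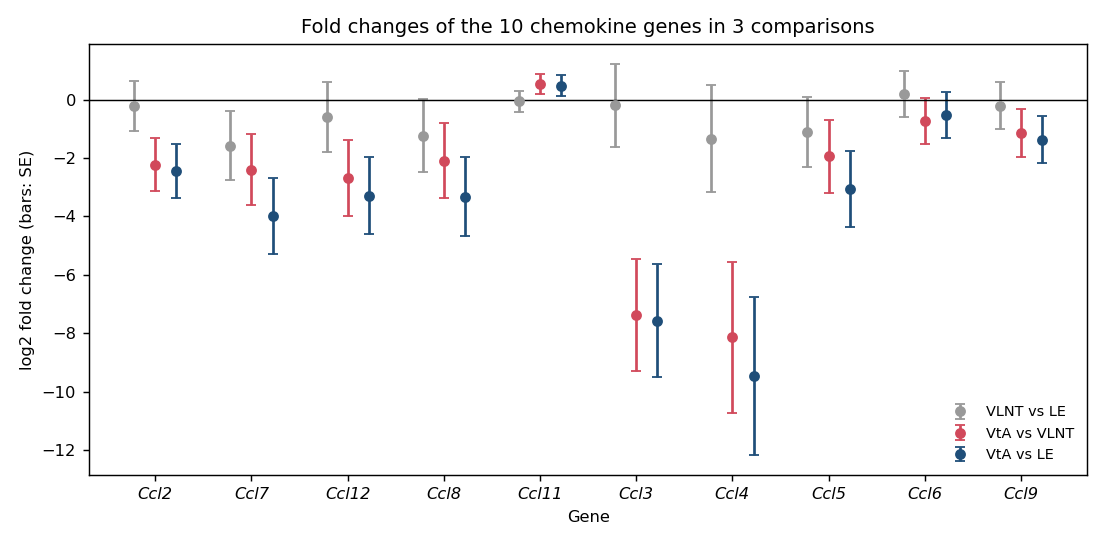
Log2 fold change (y axis, edgeR; bars are SE) of each gene (x axis) in VLNT against LE, VtA against VLNT and VtA against LE. Ccl3 and Ccl4 lie lowest in both comparisons of VtA (-7.38 to -9.47), Ccl11 is the only gene above 0 in both, and no gene passed an adjusted p of 0.05.

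The comparison of VLNT with LE asks what lymph node transfer changes in lymphedema. Of the 10 chemokine genes 9 were lower in VLNT (median log2 fold change -0.41), against 48.7% of all 19740 genes tested (median 0.015), and Ccl6 was higher (0.20 ± 0.79 SE). None was called by edgeR at an adjusted p under 0.05 (0% of all genes), none reached an unadjusted p of 0.05 (1.87% of all genes did so in the lower and 0.137% in the higher direction), and DESeq2 called none. No gene separated the groups (0.177% of all genes were lower and 0.223% higher without overlap). The direction rested on single libraries: without LE1, 6 of the 9 turned to 0.0014 to 1.66, with Ccl3 at 1.66 and Ccl4 at 1.59.

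The comparison of VtA with VLNT asks what the antibody adds to the transfer. Of the 10 genes, 9 were lower in VtA (median -2.16), against 53.3% of all genes (median -0.066). No member was called by edgeR (0% of all genes called). Ccl2, Ccl3 and Ccl4 had unadjusted p-values of 0.0302, 0.00246 and 0.00853, where 5.36% of all genes were below 0.05 and lower and 0.304% higher. DESeq2 called Ccl3 (adjusted p = 2.89e-05; 0.629% of the genes it fitted were called, 0.626% lower), and limma-voom with sample weights called Ccl2, Ccl7 and Ccl8 (adjusted p = 0.0371, 0.0453 and 0.0482; 18.3% of all genes called, 10% lower). Ccl3 and Ccl4 were above the minimum CPM in no VtA library, so their p-values and the call of Ccl3 are given as a description. No member separated the groups without overlap (8.32% of all genes did so in the lower and 7.48% in the higher direction).

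The comparison of VtA with LE covers transfer and antibody together. It shares VtA with the comparison above and LE with the first. In VtA, 9 of the 10 genes were lower (median -3.17, against -0.11 for all genes, 54.4% of which were lower). None was called (0% of all genes), and 7 had an unadjusted p under 0.05, where 13.5% of all genes did so in the lower and 3.04% in the higher direction: Ccl2, Ccl3, Ccl4, Ccl5, Ccl7, Ccl8 and Ccl12. Ccl3 alone separated the groups in CPM (1.27% of all genes were lower and 1.43% higher without overlap). DESeq2 called Ccl3, Ccl4 and Ccl7 (2.63% of all genes called, 2.54% lower), and limma-voom with sample weights called Ccl2, Ccl5, Ccl7, Ccl8, Ccl9 and Ccl12 (53.9% called, 25.9% lower). Without LE4, edgeR called the 7 genes above lower (adjusted p = 0.0101 to 0.0300), while 30.8% of all genes were called, 16.5% lower. Their log2 fold changes were then -2.84 for Ccl2, -3.48 for Ccl5, -3.71 for Ccl12, -3.74 for Ccl8, -4.38 for Ccl7, -7.99 for Ccl3 and -9.86 for Ccl4. With both LE4 and VtA1 left out, 6 of the 7 stayed called and Ccl2 did not (19.7% of all genes called, 9.25% lower). The p-values and calls of Ccl3 and Ccl4 are a description here too, since both passed the filter only through the groups where they were high. Ccl12 was above the minimum CPM in only 1 of 4 VtA libraries, so its p-value and calls rest on few VtA counts. LE4 is by its label a lymphedema library, and in TPM its levels of the 7 genes lay within or below the range of VtA. In CPM its Ccl3 level lay above all 4 VtA libraries.

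Ratios between 2 members within a library, taken after 0.5 was added to each count, do not depend on how libraries are scaled. The log2 ratio of Ccl8 to Ccl11 counts was 2.51, 0.29, 1.66 and 0.30 in VLNT1 to VLNT4 and -6.02, -0.999, -0.33 and -1.46 in VtA1 to VtA4, so the groups did not overlap. They differed by -3.39 (exact permutation test, p = 0.0286, the smallest that 4 against 4 allows; 0.143 after Benjamini-Hochberg adjustment over 15 tests). Against LE, 1 of 4 VtA libraries was below all LE libraries in this ratio (-3.40; exact permutation test, p = 0.200, adjusted p = 0.429). The ratio of Ccl8 to Ccl6 was also below all VLNT libraries in 4 of 4 VtA libraries (-1.91; exact permutation test, p = 0.0286, adjusted p = 0.143), and below all LE libraries in 1 of 4 (-2.70; exact permutation test, p = 0.114, adjusted p = 0.286). The ratio of Ccl3 to Ccl6 was below all LE libraries in 4 of 4 VtA libraries (exact permutation test, p = 0.0286, adjusted p = 0.143) and below all VLNT libraries in 2 of 4 (exact permutation test, p = 0.0857, adjusted p = 0.257). Its size is not given, since VtA1 held 0 Ccl3 counts and its ratio is set by the 0.5 added to every count. The p-values of the Ccl3 to Ccl6 ratio are a description, since Ccl3 was above the minimum CPM in no VtA library. The ratio of Ccl9 to Ccl6 lay between -1.31 and -0.023 over the 12 libraries and differed by -0.30 between VtA and VLNT (exact permutation test, p = 0.429, adjusted p = 0.643). Between VtA and LE it differed by -0.61 (exact permutation test, p = 0.0857, adjusted p = 0.257). In VtA and in VLNT, 3 of 4 libraries lay below all LE libraries in this ratio. These ratios were chosen after the levels were seen.

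Across the 12 libraries, 9 of the genes had like patterns and Ccl11 stood apart. Over the 36 pairs without Ccl11, Pearson's r of log2 CPM had a median of 0.85 (0.59 to 0.97), and Spearman's rho a median of 0.84. The median r was 0.80 with 2 libraries left out of each pair. These were the libraries farthest from the median of the lower-numbered gene of the pair, and the other gene was not considered. Over the 9 pairs with Ccl11 the median r was -0.22 (-0.57 to 0.039). With 2 libraries left out in that way it was -0.082, and Ccl6 with Ccl11 reached 0.45. Except for Ccl11 with Ccl12, the libraries left out were chosen by the other gene, not by Ccl11. On log2(TPM + 1) the medians were 0.86 and 0.25. The closest pairs were Ccl3 with Ccl4 (r = 0.97), Ccl5 with Ccl12 (0.96), Ccl2 with Ccl7 (0.95) and Ccl6 with Ccl9 (0.95), and 3 of these 4 are neighbours within 1 locus. Without Ccl11, the median r was 0.86 over 16 pairs from the same locus and 0.84 over 20 pairs from different loci. With 2 libraries left out in that way, these medians were 0.89 and 0.79. The libraries share tissue makeup and scaling between the genes, so these values only describe the pattern.

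**Figure D4:**
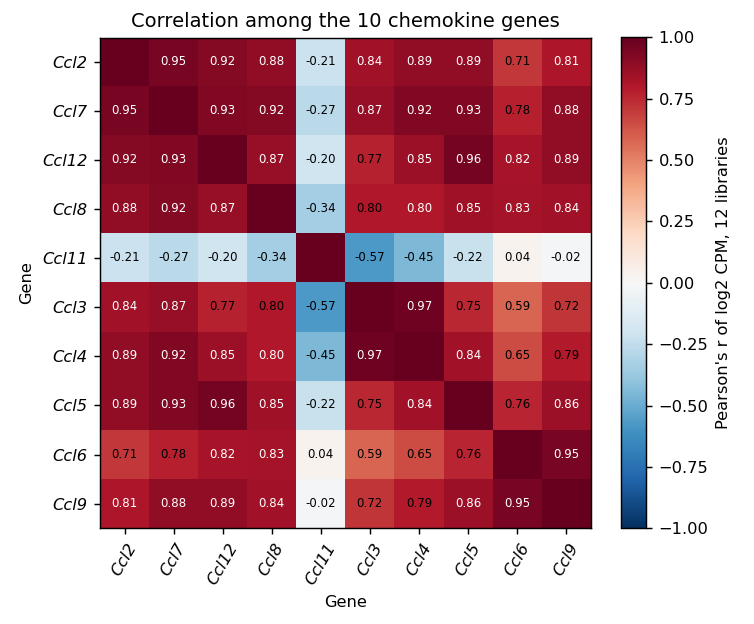
Pearson's r of log2 CPM over 12 libraries for each pair of genes (both axes; colour and printed value), ordered by locus. Ccl11 is the only gene with values near or below 0 (-0.57 to 0.039), and Ccl3 with Ccl4 is highest at 0.97.

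Of 13787 other genes at a mean of at least 1 CPM, 5 were nearest to the mean standardized log2 CPM of the 10 genes over the 12 libraries. They were Fcer1g, the signalling chain of activating Fc receptors (r = 0.99), Clec4a2, a C-type lectin receptor of myeloid cells (0.99), Alox5ap, which helps make leukotrienes (0.985), Pdpn, podoplanin (0.98), and Lpxn, leupaxin (0.98). Fcer1g ran from 6.45 to 206 TPM, with LE at 122 ± 83.6 (SD, n = 4), VLNT at 103 ± 66.3 and VtA at 23.9 ± 21.5. Pdpn, found on lymphatic endothelium and on fibroblasts, keratinocytes and some macrophages, ran from 2.79 to 42.4 TPM. Single members had other nearest genes, looked up after the values were seen and given here for 5 of the 10 members. Ccl4 had Cxcl2, Il1b and Cxcl1 (r = 0.98 to 0.99), and Ccl2 had Atp6v0e, Ppia and Npm1 (0.98 to 0.99). For Ccl6, Bco2 came first (0.97), before Csf1r (0.96). For Ccl9, Nrros (0.97) and Tbxas1 (0.96) came before Csf1r (0.96). Sgce was nearest to Ccl11 (0.82).

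Of 10 receptors and decoys of these ligands, 9 had lower values in VtA than in VLNT (median log2 fold change -0.75), where 53.3% of all genes did (median -0.066). None was called by edgeR, and 1 had an unadjusted p under 0.05, where 5.36% of all genes did so in the lower direction. That gene was Ccr1, the shared receptor of Ccl3, Ccl5, Ccl6 and Ccl9, at 11.3, 6.04, 29.3 and 0.874 TPM in VLNT1 to VLNT4 and 0.111, 0.684, 1.67 and 0.206 TPM in VtA1 to VtA4 (-3.65; edgeR, unadjusted p = 0.0142, adjusted p = 0.653). Ccr2 had means of 22.8 ± 22.4, 18.1 ± 12.8 and 5.51 ± 5.0 TPM (SD, n = 4) for LE, VLNT and VtA. The eotaxin receptor Ccr3 was low throughout (0.00711 to 2.12 TPM), and so was Ccr8, the receptor of mouse Ccl8 (0 to 0.654 TPM). Ccr4, a T helper cell receptor, was at 2.11 ± 2.87, 2.19 ± 1.00 and 1.46 ± 1.46 TPM.

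Atypical receptors bind chemokines without classical signalling and remove or move them. Ackr1, which carries chemokines across venules, averaged 3.995 ± 1.45, 3.14 ± 3.76 and 0.999 ± 0.456 TPM (SD, n = 4) for LE, VLNT and VtA, and all VtA libraries lay below all LE libraries (unadjusted p = 0.0344 by edgeR; 1.27% of all genes were lower without overlap in CPM). Ackr2, a scavenger of inflammatory CC chemokines on lymphatic endothelium, was at 1.92 ± 1.88, 2.35 ± 0.675 and 1.67 ± 0.695 TPM, with a VtA to VLNT log2 fold change of -0.020 (edgeR, unadjusted p = 0.973). Ackr4, which takes up lymph node chemokines, was at 8.93 ± 9.65, 10.7 ± 5.82 and 6.05 ± 5.78 TPM. Ccrl2 was at 8.01 ± 2.53, 8.25 ± 5.29 and 6.73 ± 1.17 TPM and was the only receptor gene higher in VtA than in VLNT by counts (0.38).

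Other chemokine genes and inducers were compared as lists chosen with earlier results of these data known. Of 10 other CC chemokines, 6 were lower in VtA than in VLNT (median -0.37) and none was called or had an unadjusted p under 0.05 by edgeR. Ccl25, Ccl19 and Ccl24 had the smallest p among them: Ccl19, a lymph node chemokine, was at 2.12 ± 1.75 TPM in VLNT (SD, n = 4) and 0.700 ± 0.785 in VtA, Ccl24, another eotaxin, at 2.32 ± 0.825 and 2.83 ± 2.03, and Ccl25 at 3.76 ± 1.66 and 4.35 ± 0.261. Of 15 CXC and other chemokines, 13 were lower (median -1.68; 53.3% of all genes were lower), none was called by edgeR, and 5 had an unadjusted p under 0.05 in that direction (5.36% of all genes). Cxcl2, a neutrophil attractant, was at 46.8, 26.2, 354 and 0 TPM in VLNT1 to VLNT4 and at no more than 0.234 TPM in VtA. Cxcl3 and Cxcl5, of the same kind, were at 0 TPM in all VtA libraries, at 0.380 and 0.0565 TPM in VLNT4, and at 4.17 to 80.5 and 6.83 to 16.2 TPM in VLNT1 to VLNT3. Ccl3 and Ccl4 showed the same split of VLNT4 from VLNT1 to VLNT3. With 0 TPM throughout VtA, Cxcl3 and Cxcl5 passed the filter only through the groups where they were high. The p-values of Cxcl2, Cxcl3 and Cxcl5, all among the 5, are therefore given as a description.

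Of 21 tested genes of inducing cytokines and their signalling, 21 were lower in VtA than in VLNT (median -0.75; 53.3% of all genes were lower). None was called by edgeR, and Il1b, Il6 and Tnf had an unadjusted p under 0.05 (5.36% of all genes did so in the lower direction). Il1b, interleukin-1 beta, was at 138, 58.8, 281 and 1.502 TPM in VLNT1 to VLNT4 and at 0.129, 0.204, 1.94 and 0.273 TPM in VtA1 to VtA4 (-6.95; unadjusted p = 0.00367, adjusted p = 0.653). Tnf was at 6.44 ± 8.72 TPM in VLNT (SD, n = 4) and 0.619 ± 0.577 in VtA, and Il6 at 1.41 ± 1.49 and 0.0855 ± 0.0622. The genes for NF-kappaB subunits and their inhibitors differed less: Nfkbia was at 50.9 ± 18.0 and 25.4 ± 13.5 TPM, Rela at 20.6 ± 3.32 and 12.3 ± 4.17. Ifng, Il4 and Il13 were too low to be tested (at most 1.32 TPM).

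The 12 macrophage and monocyte markers, of which Lyz2 also marks neutrophils and Lyve1 lymphatic endothelium, summed to 92.2 to 3235 TPM in LE, 445 to 1643 TPM in VLNT and 138 to 867 TPM in VtA. Lyz2 was the largest part of that sum in each library. All 12 markers were lower in VtA than in VLNT (median -1.07) and none was called by edgeR. Cd68 was at 57.5 ± 27.7 TPM in VLNT (SD, n = 4) and 12.7 ± 10.4 in VtA, Cd14 at 51.4 ± 62.3 and 2.41 ± 1.33. The 7 neutrophil markers, most of whose sum came from S100a8 and S100a9, which wounded keratinocytes also express, summed to 1.90 TPM in LE4, 6477 to 26291 TPM in LE1 to LE3, 157 to 3335 TPM in VLNT and 3.08 to 179 TPM in VtA. Cxcr2, the neutrophil chemokine receptor, was at 7.97 ± 5.87 TPM in VLNT and 0.506 ± 0.482 in VtA. Ly6g, a defining neutrophil marker, was at 0 in LE4, VLNT4, VtA1, VtA3 and VtA4, and at 0.888 TPM in VtA2, above all VLNT libraries (0 to 0.548 TPM); its log2 fold change in VtA against VLNT was 0.37. The neutrophil marker sum of VtA2 (179 TPM) was also above that of VLNT4 (157 TPM). The part of these cells in the chemokine differences was not tested.

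Set against the macrophage markers, the chemokines differed in range. Most of the mean marker sum came from Lyz2, which also marks neutrophils. Its means were 946, 714 and 238 TPM in LE, VLNT and VtA, against 1589, 1203 and 384 TPM for the sum. Ccl9 held 0.981 to 2.36 TPM per 100 TPM of summed macrophage markers in all 12 libraries, and Ccl6 held 2.70 to 9.44. Per 100 TPM of markers, Ccl6 averaged 3.57 ± 0.783, 6.33 ± 3.10 and 7.36 ± 2.01 (SD, n = 4) for LE, VLNT and VtA. Ccl8 ran from 0.686 in VtA1 to 35.6 in LE1, with means of 21.4 ± 14.2, 17.2 ± 8.98 and 7.55 ± 5.10. Ccl3 ran from 0 in VtA1 to 9.38 in VLNT3, and VtA3 held 0.0206 with a marker sum of 867 TPM, against 0.0516 in VLNT4 with a sum of 445 TPM. Ccl11 per 100 TPM of markers was highest in LE4 (25.5) and VtA1 (21.9), the libraries with the fewest macrophage markers. Its own level varied little (13.6 to 68.7 TPM) beside the marker sum (92.2 to 3235 TPM), so this ratio mostly followed the sum.

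**Figure D5:**
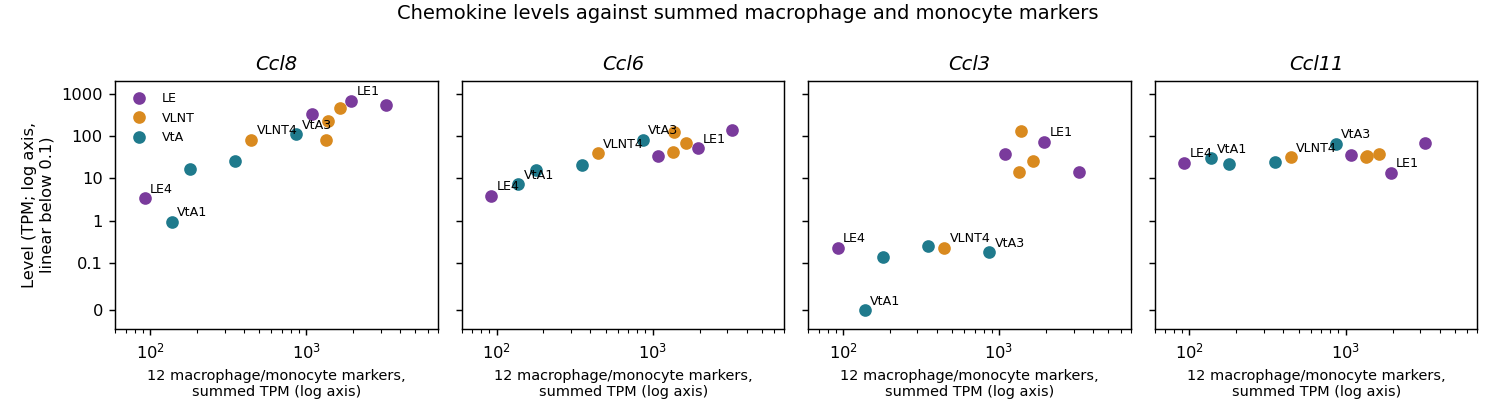
TPM of Ccl8, Ccl6, Ccl3 and Ccl11 (y axis, logarithmic and linear below 0.1) against the summed TPM of 12 macrophage and monocyte markers (x axis, logarithmic) in 12 libraries coloured by group. Lyz2 is the largest part of that sum in each library. Ccl8 and Ccl6 are higher where the marker sum is higher, Ccl3 splits into libraries under 0.3 TPM and libraries above 14 TPM, and Ccl11 stays between 13.6 and 68.7 TPM.

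Markers of other cells were compared too. The 10 T and NK cell markers summed to 71.0 to 77.8 TPM in LE1 to LE3 and 0.494 TPM in LE4, 15.1 to 53.1 TPM in VLNT and 0.350 to 23.5 TPM in VtA, and all 10 were lower in VtA than in VLNT (median -1.24). Mast cell markers were lower in 7 of 7 (median -1.54). The 6 eosinophil markers summed to 0.686 to 51.8 TPM, with Ear2 alone at 0.686 to 49.6 TPM, while the defining gene Epx was at 0 in 10 libraries. Of the 4 eosinophil markers tested, 2 were lower and 2 higher (median 0.066). The 7 dendritic cell markers were lower in 6 of 7 (median -0.87) and 7 fibroblast markers in 7 of 7 (median -0.42). Keratinocyte markers were lower in 9 of 9 (median -2.40) and skeletal muscle markers higher in 9 of 9 (median 1.10), and the part of this difference in tissue was not tested. Endothelial markers were split, 5 lower and 5 higher (median 0.043). Pecam1, Cdh5, Tek, Tie1 and Kdr were higher (0.27 to 0.82). Prox1, Flt4, Pdpn, Ccl21a and Lyve1 were lower (-1.43 to -0.18). By edgeR, none of the 10 had an unadjusted p under 0.05 (5.36% of all genes in the lower and 0.304% in the higher direction). No marker was called by edgeR.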

How the data were processed

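Frozen hindlimb tissue gave Trizol RNA, from which stranded TruSeq libraries of polyadenylated RNA were built, per the labels' protocols. The tools listed in the submitters' processing notes are StringTie 2.1.3b, HISAT2 2.1.0, Trimmomatic and bcl2fastq 2.20.0; the notes list the builds mm10 and GRCh38 with no role for either. Annotation, strand setting and the handling of multi-mapped reads are not stated there. The authors deposited 1 table with raw read counts per gene, whole numbers that sum to 56042030 to 72540147 per library, per the file headers. It also holds TPM, which the authors scaled by length and to the same total in each library, and FPKM, deposited by the authors but not used here.

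Samples were grouped by title, and columns were matched to samples by name. Of 45777 gene IDs, 45679 were found in RefSeq's table of GRCm38.p6. A single quasi-likelihood fit of all 12 libraries (edgeR 4.0.16 under R 4.3.3, TMM scaling) tested the deposited counts after filterByExpr, which kept 19740 genes, at least 99.87% of each library's counts, and all 10 chemokine genes. Genes were called at a Benjamini-Hochberg adjusted p under 0.05 over all genes. SEs come from the test statistic; levels are TPM as mean ± SD, and log2 CPM has a prior count of 2. Floors of 3 counts cover counting error only. Scripts were tested on simulated data with known changes. Alternatives were RLE scaling, no filter, DESeq2 1.42.0, limma 3.58.1 (voom with sample weights, and log2(TPM + 1)), a fit of the groups compared only, the replicate number as a block, and leaving out libraries. No library duplicated another: 0 of 18 within-group pairs held identical counts, and chi-square per degree of freedom was at least 117.7.

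The members, lists and tests were chosen with earlier results of these data known. The single endothelial markers were named after their values were seen. Besides the members and the receptors (not all of which are reported here), the rule named the 3 genes of each list with the smallest p in VtA against VLNT, of which the text gives those of the chemokine and inducer lists and a few markers, and the 5 genes nearest in pattern; the genes nearest to single members, Ly6g, Epx, Ear2, S100a9, Lyz2, Lyve1, Nfkbia and Rela were named after their values were seen.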

Additional observations from a re-analysis of the deposited data

Results flagged for a closer look

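Within VtA, VtA3 stood apart from the other 3 libraries for 5 of the 10 genes. Its level was 5.68 TPM for Ccl2, 0.236 for Ccl4, 6.93 for Ccl7, 16.5 for Ccl9 and 2.31 for Ccl12, and its distance to the next library was over 0.829 of the group's whole range (0.854 to 1.00). Of 30 groups of 4 values examined, 5 were marked in this way, where chance marks about 1 in 20. The 5 genes are correlated and all marks fall on 1 library, so they are not independent. VtA3 also held the highest sum of macrophage markers in VtA (867 TPM, against 138 to 353 TPM), and the part of those cells was not tested.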

How the results depend on the processing

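The direction of VtA against VLNT and against LE held for every chemokine gene with a value in the edgeR and DESeq2 fits tried, each single library left out included; Ccl3 and Ccl4 had no value in the fits of VtA with 1 other group. By limma on log2(TPM + 1), Ccl11 was at -0.063 in VtA against VLNT. In VLNT against LE the direction depended on the setting. With limma-voom and sample weights Ccl3 was at 0.66, Ccl4 at 0.12 and Ccl9 at 0.10. On log2(TPM + 1) Ccl3 was at 0.071, Ccl8 at 0.11, Ccl9 at 0.50 and Ccl11 at 0.18. Without LE4 and VtA1 Ccl6 was at -0.17 and Ccl11 at 0.016. Leaving out 1 library at a time gave -1.10 to 0.12 for Ccl2, -1.68 to 1.66 for Ccl3, -2.80 to 1.59 for Ccl4, -0.17 to 0.64 for Ccl6, -2.28 to 0.069 for Ccl7, -0.60 to 0.34 for Ccl9, -0.25 to 0.16 for Ccl11 and -1.58 to 0.0014 for Ccl12. The cause was not tested. In VtA against VLNT, 1 library moved 8 of the 10 values by over 1.5 times. Without VLNT1, Ccl2 was at -1.35, Ccl5 at -1.14 and Ccl12 at -1.71. Without VtA3, Ccl6 was at -1.64, Ccl8 at -3.34, Ccl9 at -1.95 and Ccl11 at 0.22, and Ccl4 then had 0 counts in VtA. Without VLNT3 Ccl6 was at -0.38, and without VtA1 at -0.44. In VtA against LE, Ccl7 was at -2.33, Ccl8 at -2.11 and Ccl9 at -0.81 without LE1, Ccl9 at -2.17 without VtA3, Ccl6 between -1.46 and -0.11 and Ccl11 between 0.13 and 0.67 over the libraries left out.

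Against 0 genes called in each comparison by edgeR (396, 1118 and 3256 at an unadjusted p under 0.05 in VLNT against LE, VtA against VLNT and VtA against LE), DESeq2 called 2, 191 and 800 and limma-voom with sample weights 1362, 3606 and 10639. In VtA against VLNT, the fit of those groups alone called 1 gene, as did the fit without LE4 and VtA1, and single libraries left out gave 0 to 10. In VtA against LE, the fit without LE4 and VtA1 called 4004 and single libraries left out gave 0 to 6288, the most without LE4. Of the 10 chemokine genes, DESeq2 called 1 in VtA against VLNT and 3 in VtA against LE, limma-voom 3 and 6, the fit without LE4 and VtA1 0 and 6, and single libraries left out 0 and 0 to 7. Any calls of Ccl3 and Ccl4 among these are given as a description.

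Replicate numbers are shared by the groups. Of 12 same-numbered pairs, 3 had deviations from their group means that correlated above 0.1 (-0.43 to 0.56). Pairs with different numbers reached 0.69 (LE4 with VtA1) and -0.75 (LE4 with VtA3). With correlations of that size between different numbers, this check cannot tell whether same-numbered samples are related. With the number as a replicate block, edgeR called 0 genes and 0 chemokine genes in each comparison, with Ccl9 at 0.29 and Ccl11 at 0.022 in VLNT against LE. With 4 libraries a group and a wide spread within LE, differences that are small beside their SE were not detectable.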
